A study of Mus musculus with 24 samples.

Results

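The genes described here encode the MuvB core of the DREAM complex (Lin9, Lin37, Lin52, Lin54 and Rbbp4), the transcription factors that join it in cycling cells (Mybl2, which encodes B-MYB, and Foxm1) and the DP partners of the E2F factors (Tfdp1 and Tfdp2). They were taken by symbol from 3 count tables, without regard to case. All 9 symbols were found once in each table, out of 24034 symbols shared by the 3 tables. RNA was sequenced from 24 libraries of cells sorted from tumours of 3 mouse mammary carcinoma lines, 4T07, D2A1 and EMT6. Each line gave 4 tumours, and each tumour gave a p27K high library, labelled as quiescent cancer cells, and a p27K negative library, labelled as proliferative. Cells of every line carried mCherry and the mVenus-p27k reporter, and 250000 of them were placed in the mammary fat pad of female Balb/cJ mice, whose age is not given in the sources used here. Tumours were taken at day 14. The lines were sequenced in different runs, so line and run cannot be told apart, and each line is a single transplanted line in one strain of host.

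MuvB is a set of proteins that stays assembled while its partners change. In quiescent cells it binds a p130 or p107 pocket protein with E2F4 or E2F5 and DP1 to form DREAM, which represses cell cycle genes. In cycling cells the pocket protein leaves, and MuvB joins first B-MYB and then FOXM1 at the CHR elements of genes used in G2 and mitosis. Mostly from work in human cells, LIN54 is known to contact CHR DNA, LIN52 to bind the pocket protein and, with LIN9, B-MYB, LIN37 to be needed for repression, and RBBP4 to be a histone-binding protein shared with several chromatin complexes. The question put to the tables was whether the RNAs of the core stay level while those of the cycling partners differ between the gates of the same tumour.

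The libraries held 27887221 to 45460880 counts in 4T07, 13769682 to 20142013 in EMT6 and 1335433 to 20174767 in D2A1. In D2A1 the p27K high libraries held at least 6727594 counts, while 3 of the 4 p27K negative libraries held at most 2110563. One library stood apart in 4T07: the p27K high library of tumour 2 had 13500 genes with a count, against 15094 to 15370 in the other 3 of its group. Mki67, a marker of cycling cells, checked the gates. It averaged 19.8, 17.1 and 13.0 CPM (counts scaled to a common library size with TMM factors within a line) in p27K high libraries of 4T07, D2A1 and EMT6, against 1719, 982 and 516 CPM in p27K negative libraries. Cdkn1b, which encodes p27, was higher in p27K high cells by 0.89 ± 0.11, 0.46 ± 0.11 and 0.54 ± 0.04 (log2, SE) in 4T07, D2A1 and EMT6; whether reads of the reporter count there was not tested. Among epithelial markers, Krt18 was present in every group (means of 69.2 to 265 CPM), Krt8 was low in D2A1 p27K high cells (7.98 ± 5.35 CPM, SD, n = 4), and Epcam averaged 3.13 CPM or less in every group. The sum of 8 such markers was 433 to 572 CPM in p27K high and 566 to 687 CPM in p27K negative libraries of 4T07. In turn it was 92.8 to 203 and 62.7 to 505 CPM in D2A1, and 606 to 863 and 751 to 1043 CPM in EMT6. Of 6 tested 1 rose and 2 fell in 4T07, of 2 tested 1 fell in D2A1, and of 5 tested 1 rose and 1 fell in EMT6. The 10 macrophage markers moved with the gate in 4T07: all 10 fell, and their sum was 80.9 to 104 CPM in p27K high libraries, against 387 to 971 CPM in p27K negative ones. In D2A1 the sum was 9.63 to 26.1 CPM in p27K high and 15.6 to 55.7 CPM in p27K negative libraries, and in EMT6 it was 32.7 to 44.1 CPM in p27K high and 24.3 to 33.0 CPM in p27K negative libraries. The sum of 9 fibroblast markers was 1515 to 2299 CPM in p27K high and 589 to 772 CPM in p27K negative libraries of 4T07, 884 to 1098 CPM in p27K high and 679 to 871 CPM in p27K negative libraries of D2A1, and 6147 to 8118 CPM in p27K high and 4859 to 6472 CPM in p27K negative libraries of EMT6. The markers on that list did not move one way: of 8 tested 3 rose and 2 fell in 4T07 (median log2 change 0.07), of 8 tested 2 rose and 4 fell in D2A1 (Thy1 at -5.00 and Col1a2 at -3.88), and of 7 tested 6 rose and none fell in EMT6 (median 0.57). The sum of 6 endothelial markers was 1.62 to 3.77 CPM in p27K high and 7.01 to 12.0 CPM in p27K negative libraries of 4T07, and 0.306 to 3.69 CPM in p27K high and 8.30 to 26.7 CPM in p27K negative libraries of D2A1, and all 3 tested markers fell in 4T07, as did both tested markers in D2A1. In EMT6 that sum was 0.848 to 6.52 CPM in p27K high and 1.58 to 12.8 CPM in p27K negative libraries, and no endothelial marker was tested. Of 5 neutrophil markers tested in 4T07 2 fell and none rose. The sum of 6 was 17.7 to 57.3 CPM in p27K high and 54.0 to 67.1 CPM in p27K negative libraries there. In D2A1 and in EMT6 the 1 neutrophil marker tested rose, and the sums were 8.81 CPM or less. Of all genes tested, 23.6%, 14.7% and 25.1% fell in 4T07, D2A1 and EMT6, and 22.1%, 14.9% and 24.1% rose. The part of macrophage, neutrophil, fibroblast and endothelial transcripts in the results was not tested.

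Promoters from RefSeq (build GRCm38.p6, 250 bases before to 50 bases after the start site) were at hand for 7 of the 9 genes, Lin9 and Foxm1 having none in the table used. Lin37 and Lin52 are printed as core genes with little or uneven change, while Rbbp4, which changed by -0.25 on average, is not printed. The 5 printed promoters also cover the most lowered of the 7 genes, the most lowered core gene and the DP gene of steadiest change. They run 5′ to 3′ along the gene, and capitals mark 3 motifs searched on both strands: the CHR letters TTTGAA, the E2F letters TTTCCCGC, TTTCGCGC, TTTGCCGC or TTTGGCGC, and a shorter E2F core, GGCGGGA. The first can overlap none of the others, while the short core can overlap the long E2F letters.
Mybl2, chr2:163054385-163054684, plus strand: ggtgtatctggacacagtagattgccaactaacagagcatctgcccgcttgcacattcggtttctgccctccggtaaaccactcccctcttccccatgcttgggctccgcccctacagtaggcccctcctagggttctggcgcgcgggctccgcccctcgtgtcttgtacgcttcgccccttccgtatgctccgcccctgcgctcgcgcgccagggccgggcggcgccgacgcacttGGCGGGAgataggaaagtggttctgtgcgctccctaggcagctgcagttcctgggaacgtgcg
Lin54, second start site, chr5:100498524-100498823, minus strand: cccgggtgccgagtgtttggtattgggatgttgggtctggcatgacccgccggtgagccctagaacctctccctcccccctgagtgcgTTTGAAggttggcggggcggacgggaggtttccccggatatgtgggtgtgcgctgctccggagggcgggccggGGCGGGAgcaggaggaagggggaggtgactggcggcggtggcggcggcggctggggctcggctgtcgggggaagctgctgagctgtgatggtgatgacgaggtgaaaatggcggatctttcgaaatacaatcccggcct
Tfdp1, first start site, chr8:13338501-13338800, plus strand: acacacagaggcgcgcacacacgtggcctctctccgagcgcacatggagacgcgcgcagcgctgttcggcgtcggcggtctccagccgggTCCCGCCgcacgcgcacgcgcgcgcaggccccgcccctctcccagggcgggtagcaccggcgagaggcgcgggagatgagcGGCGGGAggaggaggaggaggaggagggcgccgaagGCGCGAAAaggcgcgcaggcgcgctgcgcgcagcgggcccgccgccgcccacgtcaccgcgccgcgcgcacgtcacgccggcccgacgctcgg
Lin37, chr7:30559597-30559896, minus strand: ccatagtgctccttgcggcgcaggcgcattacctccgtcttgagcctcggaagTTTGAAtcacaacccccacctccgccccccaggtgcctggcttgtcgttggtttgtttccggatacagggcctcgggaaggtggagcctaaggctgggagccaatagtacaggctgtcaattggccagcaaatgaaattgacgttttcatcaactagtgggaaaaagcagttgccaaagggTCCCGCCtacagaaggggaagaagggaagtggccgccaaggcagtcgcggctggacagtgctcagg
Lin52, chr12:84451258-84451557, plus strand: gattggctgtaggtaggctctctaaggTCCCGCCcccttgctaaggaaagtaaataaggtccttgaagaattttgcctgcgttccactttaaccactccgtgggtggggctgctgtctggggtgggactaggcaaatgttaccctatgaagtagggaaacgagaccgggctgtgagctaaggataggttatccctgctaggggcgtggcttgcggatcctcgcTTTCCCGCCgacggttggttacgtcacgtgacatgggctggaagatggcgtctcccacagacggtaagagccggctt
The Mybl2 window held the short E2F core 13 bases before the start, which 11.3% of all 32851 promoters in the table hold, and no CHR. The Lin54 window held TTTGAA 162 bases before this start, as 17.9% of all promoters do somewhere in their 300 bases, and the short core 89 bases before it. The Tfdp1 window held GCGCGAAA, the reverse strand of TTTCGCGC, 43 bases before the start, and the Lin52 window held TTTCCCGC 27 bases before it. Those long E2F letters are in 2.26% of all promoters. The Lin37 window held TTTGAA 197 bases before the start and the reverse of the short core 16 bases before it. Neither the Rbbp4 window nor those of Tfdp2 held any of them. The letters CCAAT, searched in the same way and found in 37.4% of all promoters, were in the windows of Lin37, Lin52, Lin54 and Rbbp4, and AACGG, a MYB core found in 17.4%, was in none of the 7 genes. The CHR letters were thus found both in Lin54 and in Lin37, and the long E2F letters in Tfdp1 and Lin52. The short core was in every printed window, with 2 matches each in Tfdp1 and Lin52. At the first start site of Lin54, not printed, TTTGAA began at base 41 after the start, and the short core and CCAAT were absent. A match of letters is not a binding site.

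Across the 3 lines, the RNAs of B-MYB and FOXM1 were the ones that differed most between the gates, Lin9 and Lin54 fell by several fold, Tfdp1 fell about 1.93-fold with nearly the same change in each line, and Lin37, Lin52, Rbbp4 and Tfdp2 changed by less. Calls below use edgeR's quasi-likelihood test with the tumour as a block, and p-values adjusted by Benjamini and Hochberg over all genes tested in a line. In 4T07, 7 of the 9 genes fell, against 23.6% of all 12849 genes tested that fell and 22.1% that rose. In D2A1, 5 of 9 fell, against 14.7% of 12845 genes that fell and 14.9% that rose. In EMT6, 8 of 9 fell, against 25.1% of 13354 genes that fell and 24.1% that rose. No gene of the 9 rose in any line. The p27K high libraries of a line all lay below its p27K negative libraries for 7 of the 9 genes in 4T07, 6 in D2A1 and 7 in EMT6, as they did for 21%, 15.6% and 19.3% of all genes tested. Averaged over the lines in one fit of all libraries, 8 of 9 fell, against 24% of 13578 genes that fell and 28.3% that rose, with a median change of -0.95 on the log2 scale, while the median of all genes tested was 0.03. The name of a constant core therefore did not hold for the RNA of all 5 MuvB genes: Lin9 and Lin54 were lower in the p27K high library of all 12 tumours. RNA per cell and the number of cells giving it cannot be told apart in sorted bulk samples.

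**Figure D1:**
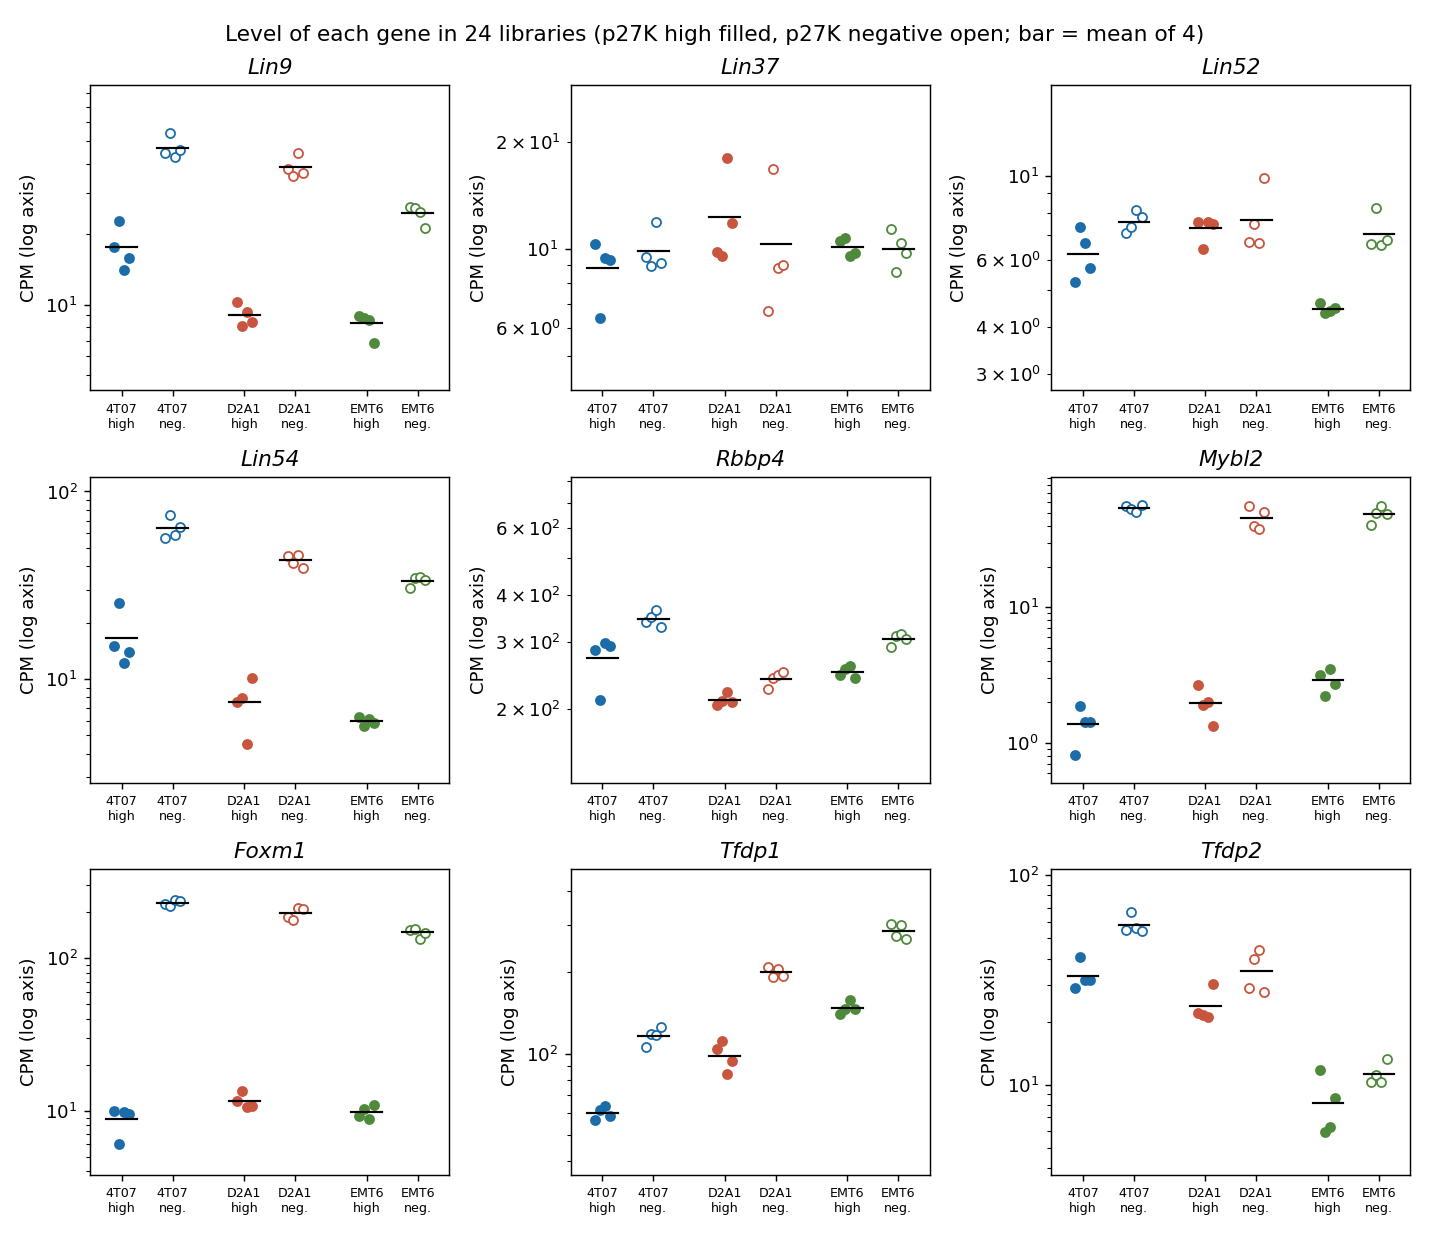
CPM (log axis) of each gene in every library, in 6 groups of 4 with p27K high (filled) left of p27K negative (open) in each line and a bar at the mean. Mybl2 and Foxm1 lie far apart between the gates in every line, while Lin37 overlaps in every line.

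Mybl2, which encodes the factor that replaces the pocket protein on MuvB, had the largest change of the 9. In 4T07 Mybl2 was at 0.81, 1.86, 1.41 and 1.43 CPM in p27K high cells of tumours 1 to 4, against 55.7, 53.0, 50.4 and 57.2 CPM in p27K negative cells. In D2A1 Mybl2 was at 2.66, 1.90, 2.01 and 1.32 CPM in p27K high cells, against 55.7, 39.8, 37.6 and 50.2 CPM in p27K negative cells. Values run in order of tumour number throughout. In EMT6 Mybl2 was at 3.16, 2.21, 3.49 and 2.74 CPM in p27K high cells of tumours 0, 1, 2 and 4, against 40.5, 49.7, 56.4 and 48.6 CPM in p27K negative cells. No p27K high library came near the lowest p27K negative one. The log2 change was -5.34 ± 0.21 (SE) in 4T07 (adjusted p = 1.76e-06), -4.59 ± 0.21 in D2A1 (adjusted p = 2.2e-09) and -4.06 ± 0.11 in EMT6 (adjusted p = 4.96e-09). On average over the lines it was 24.9-fold lower in p27K high cells (95% interval of the log2 change -4.87 to -4.40, adjusted p = 7.11e-16).

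Foxm1, which encodes the factor that acts with MuvB and B-MYB late in G2, fell in every tumour as well. In 4T07 Foxm1 was at 9.93, 6.08, 9.75 and 9.51 CPM in p27K high cells of tumours 1 to 4, against 226, 220, 238 and 238 CPM in p27K negative cells. In D2A1 Foxm1 was at 11.5, 13.5, 10.5 and 10.7 CPM in p27K high cells, against 186, 176, 213 and 209 CPM in p27K negative cells. In EMT6 Foxm1 was at 9.22, 10.2, 8.78 and 10.9 CPM in p27K high cells, against 153, 156, 133 and 147 CPM in p27K negative cells. In p27K high cells the means were 8.82, 11.6 and 9.78 CPM in 4T07, D2A1 and EMT6. There D2A1 lay above 4T07 with no overlap, while EMT6 overlapped both. In p27K negative cells the lines stood in the order 4T07, D2A1, EMT6 from high to low, with no overlap. Levels were scaled within each line and come from separate tables, of 24982 entries in 4T07 and 49315 in D2A1 and in EMT6. An order of levels between lines is thus a description that also holds run and table. The log2 change was -4.72 ± 0.13 in 4T07 (adjusted p = 4.82e-07), -4.08 ± 0.14 in D2A1 (adjusted p = 2.09e-10) and -3.91 ± 0.06 in EMT6 (adjusted p = 4.5e-10), and on average the gene was 18.4-fold lower in p27K high cells. Without tumour 2, whose p27K high library stood apart, the changes in 4T07 were -4.58 for Foxm1 and -5.53 for Mybl2.

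Lin54, the DNA-contacting subunit, had the largest change within MuvB. In 4T07 Lin54 was at 14.9, 25.3, 12.2 and 13.9 CPM in p27K high cells of tumours 1 to 4, against 56.6, 74.6, 58.3 and 64.8 CPM in p27K negative cells. In D2A1 Lin54 was at 7.52, 7.90, 4.48 and 10.1 CPM in p27K high cells, against 45.3, 41.6, 45.9 and 39.2 CPM in p27K negative cells. In EMT6 Lin54 was at 6.26, 5.60, 6.09 and 5.82 CPM in p27K high cells, against 30.7, 34.4, 34.9 and 33.9 CPM in p27K negative cells. The gates did not overlap in any line, and tumour 2 of 4T07 was the highest of its line in both gates. The log2 change was -1.99 ± 0.14 in 4T07 (adjusted p = 3.73e-05), -2.48 ± 0.20 in D2A1 (adjusted p = 8.92e-07) and -2.49 ± 0.08 in EMT6 (adjusted p = 1.8e-08), an average of 4.85-fold lower in p27K high cells.

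Lin9, the subunit that helps hold B-MYB, followed the same pattern at a smaller size. In 4T07 Lin9 was at 17.5, 22.8, 14.1 and 15.8 CPM in p27K high cells, against 44.3, 54.2, 42.8 and 45.7 CPM in p27K negative cells. In D2A1 Lin9 was at 10.3, 8.09, 9.28 and 8.42 CPM in p27K high cells, against 37.9, 35.6, 44.3 and 36.4 CPM in p27K negative cells. In EMT6 Lin9 was at 8.96, 8.77, 8.63 and 6.87 CPM in p27K high cells, against 25.98, 25.75, 24.94 and 21.3 CPM in p27K negative cells. The 4 tumours of EMT6 gave changes close to each other on the log2 scale, from -1.61 to -1.52. The fitted log2 change was -1.43 ± 0.10 in 4T07 (adjusted p = 4.2e-05), -2.09 ± 0.16 in D2A1 (adjusted p = 3.32e-07) and -1.56 ± 0.08 in EMT6 (adjusted p = 3.02e-07), an average of 3.16-fold lower.

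Lin37, the subunit needed for repression by DREAM, did not pass the test in any line. In 4T07 Lin37 was at 10.3, 6.40, 9.43 and 9.32 CPM in p27K high cells, against 9.52, 8.98, 12.0 and 9.14 CPM in p27K negative cells. In D2A1 Lin37 was at 9.83, 9.56, 18.1 and 11.8 CPM in p27K high cells, against 6.68, 16.8, 8.86 and 9.03 CPM in p27K negative cells. In EMT6 Lin37 was at 10.5, 10.8, 9.58 and 9.72 CPM in p27K high cells, against 11.4, 8.62, 10.4 and 9.77 CPM in p27K negative cells. The gates overlapped in every line, and p27K high cells were lower in 6 of 12 tumours. The log2 change had 95% intervals of -0.51 to 0.18 in 4T07, -0.34 to 0.80 in D2A1 and -0.22 to 0.26 in EMT6, and on average it was 0.06 with an interval of -0.19 to 0.30 (adjusted p = 0.713). In D2A1 the p27K negative libraries of tumours 1 to 3 held 9, 36 and 16 reads of this gene. The average interval holds log2 changes of up to 0.30. Whether reads of Hspb6, which overlaps Lin37 on the other strand, count here was not tested.

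Lin52, the subunit that binds the pocket protein, passed the test in EMT6. There Lin52 was at 4.61, 4.35, 4.39 and 4.48 CPM in p27K high cells, against 6.61, 8.21, 6.57 and 6.78 CPM in p27K negative cells, with no overlap and a log2 change of -0.65 ± 0.13 (adjusted p = 0.00236). In 4T07 Lin52 was at 5.25, 7.33, 6.64 and 5.71 CPM in p27K high cells, against 7.08, 7.31, 8.12 and 7.79 CPM in p27K negative cells, a change of -0.29 ± 0.15 (adjusted p = 0.143). Without 4T07 tumour 2 the change in that line was -0.39 (adjusted p = 0.0214), which is past the threshold. In D2A1 Lin52 was at 7.57, 6.43, 7.58 and 7.49 CPM in p27K high cells, against 6.68, 7.49, 6.64 and 9.86 CPM in p27K negative cells, with a change of -0.14 ± 0.23 (adjusted p = 0.697). On average Lin52 was 1.26-fold lower (adjusted p = 0.00613), in 9 of 12 tumours. The difference between lines did not pass the test (adjusted p = 0.168).

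Rbbp4, the histone-binding subunit, was lower in the p27K high library of all 12 tumours, by a small factor. In 4T07 Rbbp4 was at 286, 210, 298 and 293 CPM in p27K high cells, against 339, 349, 365 and 329 CPM in p27K negative cells. In D2A1 Rbbp4 was at 204, 210, 221 and 208 CPM in p27K high cells, against 225, 240.5, 245 and 249.5 CPM in p27K negative cells. In EMT6 Rbbp4 was at 245, 255, 259 and 241 CPM in p27K high cells, against 292, 311, 315 and 306 CPM in p27K negative cells. The gates did not overlap in any line. The log2 change was -0.36 ± 0.11 in 4T07 (adjusted p = 0.0273), -0.19 ± 0.11 in D2A1 (adjusted p = 0.211) and -0.29 ± 0.04 in EMT6 (adjusted p = 0.000394), an average of 1.19-fold lower (adjusted p = 0.00079). The 4T07 value rests in part on tumour 2: without it the change was -0.24 (adjusted p = 0.00392), and without tumour 1 or tumour 3 it no longer passed (adjusted p of 0.0792 and 0.0714).

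**Figure D2:**
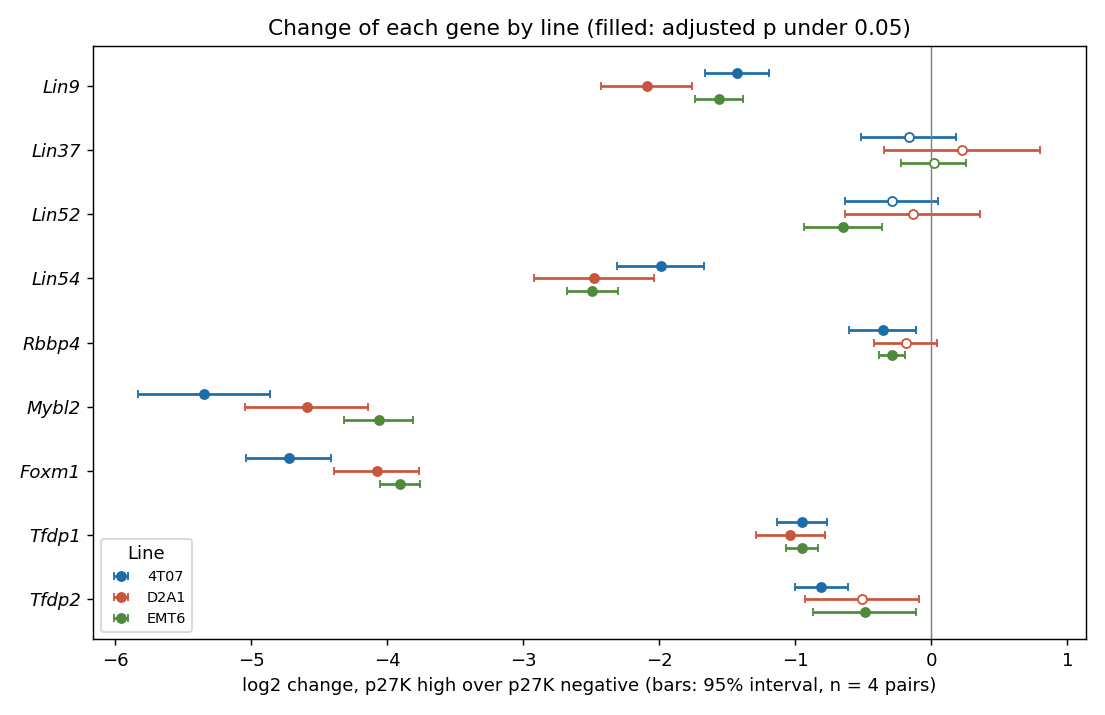
Log2 change of each gene, p27K high over p27K negative, in each line, with 95% intervals over 4 tumours and filled points for adjusted p under 0.05. Mybl2 and Foxm1 lie between -5.34 and -3.91, Lin54 and Lin9 between -2.49 and -1.43, and Lin37 spans 0 in every line.

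Tfdp1 encodes DP1, the dimer partner of E2F factors in DREAM and in the activating E2F complexes. In 4T07 Tfdp1 was at 56.8, 61.8, 64.0 and 58.6 CPM in p27K high cells, against 106, 118, 117 and 125 CPM in p27K negative cells. In D2A1 Tfdp1 was at 104, 111, 83.8 and 93.9 CPM in p27K high cells, against 210, 192, 205 and 194 CPM in p27K negative cells. In EMT6 Tfdp1 was at 140, 147, 159 and 147 CPM in p27K high cells, against 302, 273, 300.02 and 267 CPM in p27K negative cells. The gates did not overlap, and the lines stood in the order 4T07, D2A1, EMT6 from low to high in both gates. That order also holds run and table, as levels were scaled within each line. The log2 change was -0.95 ± 0.08 in 4T07, -1.04 ± 0.12 in D2A1 and -0.95 ± 0.05 in EMT6 (adjusted p of 9.77e-05, 2.29e-05 and 6.65e-07 in turn), an average of 1.93-fold lower. The test of equal change in the lines did not pass (adjusted p = 0.941), and the difference in log2 change between 4T07 and EMT6 was 0.02 with a 95% interval of -0.23 to 0.27.

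Tfdp2 encodes DP2, the other DP partner. In 4T07 Tfdp2 was at 29.1, 40.6, 31.4 and 31.5 CPM in p27K high cells, against 54.7, 66.6, 56.0 and 54.2 CPM in p27K negative cells, with no overlap and a log2 change of -0.81 ± 0.08 (adjusted p = 0.000275). In D2A1 Tfdp2 was at 21.97, 21.4, 21.0 and 30.3 CPM in p27K high cells, against 29.0, 39.8, 43.7 and 27.7 CPM in p27K negative cells, a change of -0.51 ± 0.19 that did not pass (adjusted p = 0.0636). Tumour 4 was the one that went the other way, and without it the change in D2A1 was -0.81 (adjusted p = 0.0123). In EMT6 Tfdp2 was at 11.8, 5.97, 6.29 and 8.68 CPM in p27K high cells, against 10.3, 11.1, 10.3 and 13.3 CPM in p27K negative cells, a change of -0.49 ± 0.17 (adjusted p = 0.0350). This call was lost without EMT6 tumour 1, 2 or 4 (adjusted p of 0.146, 0.154 and 0.122). On average Tfdp2 was 1.48-fold lower (adjusted p = 0.00017), in 10 of 12 tumours.

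Levels between genes were compared per kilobase of merged exon length in the GENCODE M21 annotation. In p27K high cells of 4T07 the order from the top was Rbbp4 (31.1 ± 4.72 CPM per kb, SD, n = 4), Tfdp1 (16.4 ± 0.88), Lin37 (6.39 ± 1.22), Lin54 (2.85 ± 1.02), Lin9 (2.42 ± 0.52), Tfdp2 (2.36 ± 0.36), Lin52 (2.00 ± 0.30), Foxm1 (1.53 ± 0.32) and Mybl2 (0.298 ± 0.093), and each step from Lin54 to Foxm1 lay within the spread of its neighbours. In p27K negative cells of the same line Foxm1 (40.1 ± 1.57) and Rbbp4 (39.5 ± 1.73) overlapped at the top and Mybl2 (11.7 ± 0.65) stood at rank 4, overlapping Lin54 (10.9 ± 1.40). Thus Mybl2 was at the bottom of the 9 in p27K high cells of 4T07 and D2A1, and next to the bottom in EMT6, where it overlapped Tfdp2. In p27K negative cells it was at rank 4 in all 3 lines. Among the core genes, Lin37 stood above Lin54, with no overlap, in p27K high cells of all 3 lines. The Lin37 level may hold reads of Hspb6, which overlaps it on the other strand, if strand was not used in counting. In p27K negative cells Lin37 stood below Lin54 in 4T07 and overlapped it in D2A1 (7.46 against 7.39). In p27K negative cells of EMT6 Lin37 again stood above Lin54 (7.22 against 5.75), with no overlap. In D2A1 the p27K high order was led by Tfdp1 (26.7 ± 3.23) and Rbbp4 (24.1 ± 0.85), which overlapped, and in EMT6 by Tfdp1 (40.3 ± 2.16) above Rbbp4 (28.6 ± 0.95). Over the 6 groups, scaled within each line, the mean of Lin37 ran from 6.39 to 8.88 CPM per kb and that of Rbbp4 from 24.1 to 39.5. That of Lin54 ran from 1.02 to 10.9.

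**Figure D3:**
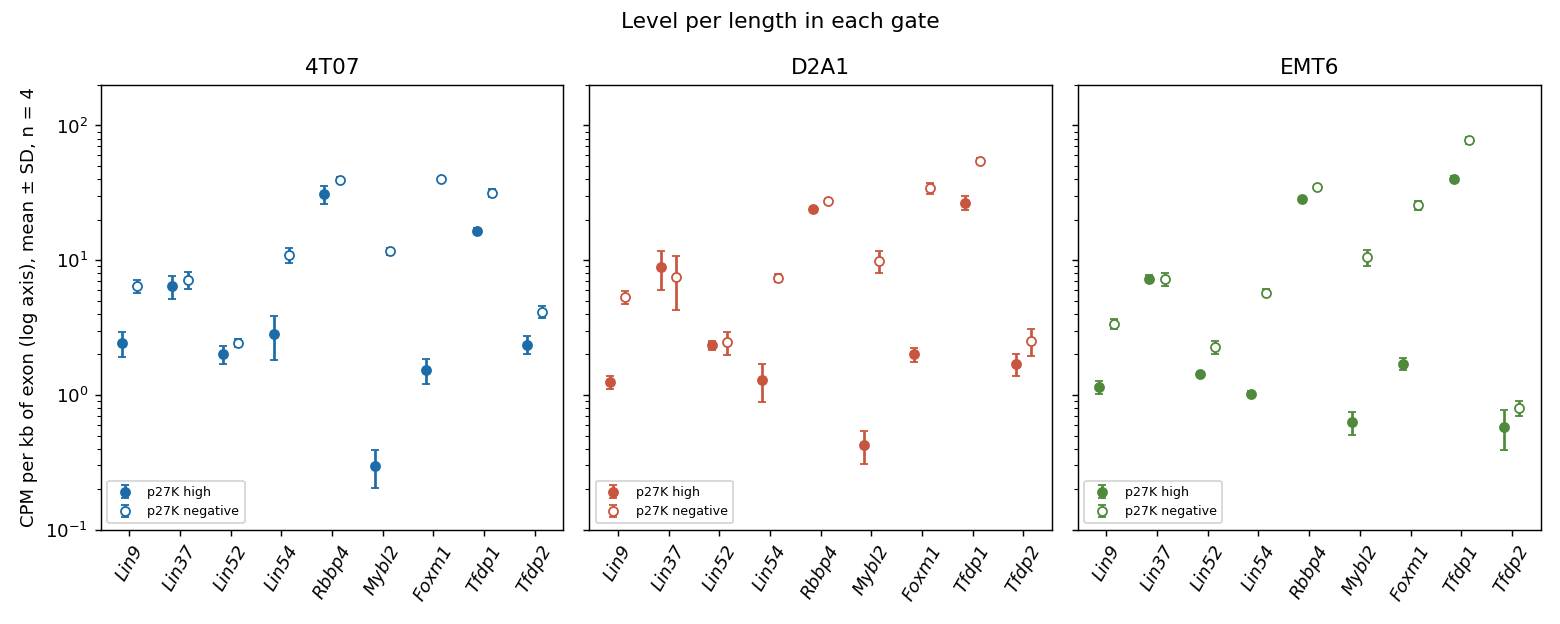
Mean CPM per kb of exon ± SD (n = 4, log axis) of each gene in p27K high (filled, left) and p27K negative (open, right) libraries, by line. Mybl2 is the lowest gene in p27K high cells of 4T07 and D2A1.

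The change differed between lines for Lin9, Mybl2 and Foxm1 and did not pass for the other 6, against 24.5% of all 13578 genes. For Mybl2 the change was more negative in 4T07 than in EMT6 by -1.25 ± 0.26 on the log2 scale (adjusted p = 0.00529), a contrast in which 15% of all genes were called. For Foxm1 it was more negative in 4T07 than in D2A1 by -0.68 ± 0.17 (adjusted p = 0.00967) and than in EMT6 by -0.79 ± 0.17 (adjusted p = 0.00556). For Lin9 the difference ran the other way, with a smaller fall in 4T07 than in D2A1 by 0.63 ± 0.15 (adjusted p = 0.0057), and 23.3% of all genes were called in that contrast. The p27K negative gate of 4T07 also held the most macrophage transcripts, as given above, and the part of these in the differences was not tested. Between D2A1 and EMT6 no gene of the 9 passed, against 3.45% of all genes, and the intervals of the difference were -0.48 to 0.26 for Foxm1 and -1.09 to 0.12 for Mybl2.

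Over all 24 libraries, centred within each line, the log2 CPM of 5 of these genes moved closely together. Pearson's r was 0.987 between Mybl2 and Foxm1, 0.973 between Lin9 and Lin54, and 0.974 and 0.977 between Tfdp1 and Mybl2 and Tfdp1 and Foxm1. For Lin37 it lay between -0.22 with Lin54 and 0.26 with Rbbp4. These values describe libraries that share the 2 gates and the tumours, and no r was computed within a gate. By the same measure over 8873 genes, those most like Mybl2 were Kif22, Mki67 and Kif20a (r of 0.996, 0.995 and 0.994), of which Kif22 and Kif20a encode mitotic kinesins. Those most like Foxm1 were Ncapd2 (0.997), a condensin subunit, Mcm3 (0.997), a replication helicase subunit, and Plk1 (0.996), a mitotic kinase. Those most like Lin54 were Haus6, Nup107 and Ctcf (all 0.990), most like Lin9 were Rad21, Nucks1 and Cep89 (0.984, 0.983 and 0.983), and most like Tfdp1 were Gen1, Ncapg2 and Kif14 (0.986, 0.986 and 0.984). The likeness was not of size: Kif14 changed by -6.39 on average and Tfdp1 by -0.95.

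The partners that complete DREAM gave a mixed picture, in which the pocket proteins differed in direction. Rbl1, which encodes p107, fell in every line and by -2.03 ± 0.07 on average (adjusted p = 8.79e-14). E2f4 fell by -0.32 ± 0.06 on average (adjusted p = 0.000299), and E2f5 by -0.17 (adjusted p = 0.0339). Rbl2, which encodes p130, the pocket protein typical of quiescent cells, rose by 0.33 on average (adjusted p = 0.00101), with changes of 0.48 in 4T07 (adjusted p = 0.00386), 0.31 in D2A1 (adjusted p = 0.14) and 0.09 in EMT6 (adjusted p = 0.451). Of 5 other genes of the E2F and RB family on average 4 fell, led by E2f2 (-1.61 ± 0.10) and E2f1 (-0.86 ± 0.08), and Rb1 rose by 0.29 (adjusted p = 0.003). Of all genes tested 24% fell and 28.3% rose on average. Of the paralogs of these genes, Mybl1 fell by -1.81 ± 0.08 and Rbbp7 by -0.68 ± 0.05 on average, while Myb did not pass (-1.34, adjusted p = 0.253). Among the single lines Myb was tested in 4T07 alone, where it fell by -1.49 (adjusted p = 0.00508).

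The genes listed here as controlled by MuvB and its partners fell in every line. The late list holds genes known for CHR elements and for a peak in G2 and mitosis. The early list holds genes known for E2F sites and for action in S phase. Whether each listed gene holds such a site was not tested. Both lists were chosen with earlier results of these data known, so their fall cannot speak for all target genes. Mki67, used above to check the gates, is on the late list. All 44 late genes fell in each line, with median log2 changes of -5.93 in 4T07, -4.85 in D2A1 and -4.76 in EMT6. All 40 early genes fell in each line, with medians of -2.75, -2.09 and -2.17. For all genes tested the medians were 0.00, 0.02 and 0.02, and 23.6%, 14.7% and 25.1% fell, in 4T07, D2A1 and EMT6 in turn. Late genes ran on average from -6.39 for Kif14 to -1.39 for Cdc25b, a phosphatase that activates CDK1, and included Kif23 at -5.15 ± 0.06 and Cdca8 at -4.69 ± 0.07. Early genes ran from -4.66 for Mcm10 to -0.83 for Slbp, and included Rrm1 at -2.41 ± 0.05 and Dbf4 at -2.78 ± 0.05. The average changes of Mybl2 and Foxm1, -4.64 and -4.20, thus lay between the medians of the late genes (-5.11) and the early genes (-2.33), and Lin54 (-2.28) lay next to the early median. Some genes stand on more than one list, such as Ccna2, Ccnb1, Cdk1 and Plk1 on the late list and the next one, and E2f1, E2f2 and Rbl1 on the early list.

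Of 17 regulators of the switch between DREAM and the B-MYB complex, 10 fell and 2 rose on average, against 24% and 28.3% of all genes tested. Of the 10 that fell, Ccna2, Ccnb1, Cdk1 and Plk1 are also counted on the late list. Cdk1 fell by -3.15 ± 0.06 (adjusted p = 3.44e-17) and Plk1 by -5.70 ± 0.12 (adjusted p = 1.07e-16), and Cdkn1b and Lats2 rose. Dyrk1a, the kinase that phosphorylates LIN52 to assemble DREAM, changed by -0.07 on average (adjusted p = 0.234), and passed in EMT6 alone, where it fell by -0.25 (adjusted p = 0.00308). Cdkn1a, which encodes p21, rose in D2A1 by 0.63 (adjusted p = 0.00175), fell in EMT6 by -0.22 (adjusted p = 0.00489) and did not pass in 4T07 (-0.21, adjusted p = 0.141). RBBP4 is also a subunit of the CAF-1, PRC2, NuRD, NURF and SIN3 complexes. Of 24 tested genes of those complexes 13 fell and 3 rose on average, against 24% and 28.3% of all genes tested, and their median change was -0.14. Those that fell include Chaf1a (-2.77 ± 0.06) and Ezh2 (-1.76 ± 0.05), while Ezh1, the other PRC2 methyltransferase, rose by 0.89 (adjusted p = 2.55e-10). The CAF-1 subunit Chaf1b changed by -2.12 on average on the log2 scale, and Rbbp4 itself by -0.25.

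**Figure D4:**
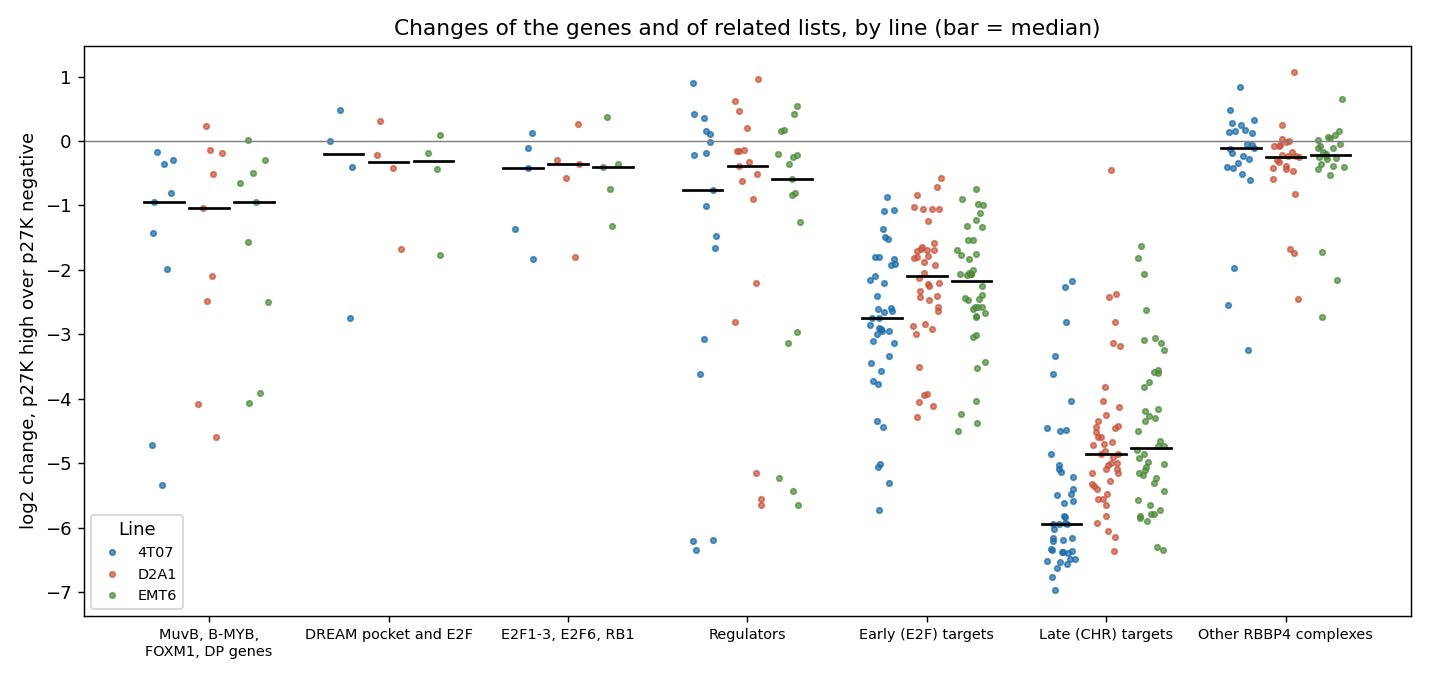
Log2 change, p27K high over p27K negative, of each gene of the lists in each line, with a bar at the median. The late genes have medians of -5.93, -4.85 and -4.76, and the other RBBP4 complexes medians of -0.12, -0.24 and -0.22.

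Of the outermost starts of the 9 genes in the GENCODE M21 annotation, 3 have a gene starting on the other strand within 1 kb. Other start sites, such as those of the Tfdp2 promoter windows, were not searched. Rhno1 starts 56 bp from Foxm1 and fell by -0.47 ± 0.05 on average (adjusted p = 1.08e-06), against -4.20 for Foxm1. Aldh6a1 starts 418 bp from Lin52 and rose by 0.95 ± 0.09 (adjusted p = 8.08e-08), while Lin52 changed by -0.33. Zbtb8os starts 325 bp from Rbbp4 and changed by 0.10 ± 0.11, which did not pass. Neighbours thus did not share the size of the change. Aldh6a1 and Lin52 went in opposite directions, and for Zbtb8os no direction was called. Exons of Foxm1 overlap Tex52 and Gm44596, both on the same strand. Tex52 averaged 0.008 CPM in p27K high and 0.207 CPM in p27K negative cells of 4T07. Exons of Rbbp4 overlap Sync and Gm26722, and those of Lin37 overlap Hspb6, all on the other strand. Levels of Gm44596 and Gm26722 are not reported here. Sync averaged at most 5.48 CPM in any group, far below Rbbp4, but Hspb6 averaged 49.0 CPM in p27K high and 38.6 CPM in p27K negative cells of 4T07, above Lin37, so reads of Lin37 and Hspb6 may be shared if strand was not used in counting.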

How the data were processed

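RNA was measured by bulk RNA sequencing in 24 libraries. The deposited tables, 1 per line, hold raw whole-number counts per gene. Per the labels' protocols, cells of digested tumours were stained (CD45, DAPI) and sorted, RNA was extracted with the miRNeasy Micro kit, and GENEWIZ sequenced it and made the count matrices. The submitters' processing notes name mm10 and DESeq2. No source used here gives the aligner, the counter or the use of strand, so overlapping genes may share reads.

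Entries with a blank name (at most 0.0109% of a library's counts) and 4 date-like entries per table were left out. Each line was tested with edgeR 4.0.16 (R 4.3.3): TMM scaling, filterByExpr, tumour as a block, glmQLFit and glmQLFTest, with p adjusted by Benjamini and Hochberg over all genes and called under 0.05. The average and the difference between lines came from one fit of 24 libraries with 12 tumour blocks. SE is the size of the change over the root of F. Gates of a tumour were paired by labels in 4T07 and D2A1. In EMT6 the columns are numbered 0, 1, 2 and 4, unlike the titles. Pairing there used the column numbers, since the deviations of equal numbers correlated at 0.615, 0.575, 0.813 and 0.648 (5000 genes). In 4T07 r was 0.195 to 0.801 and in D2A1 0.0841 to 0.293. All pairs of replicates differed by more than sampling noise. The error behind each p is how far the gate difference varies from tumour to tumour. It is not the spread of that gene alone, since glmQLFit draws each gene's spread toward the trend over all genes tested. The code was tested on simulated data.

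Genes named are the 9 themselves, the 2 genes of smallest p in the average on each pathway list, the 3 most like Mybl2, Foxm1, Lin9, Lin54 and Tfdp1 (r of log2 CPM, prior count 2, genes of at least 5 CPM in every line), neighbours within 1 kb, and Cdkn1b and Mki67. Others named on the lists, the marker genes and the overlapping genes were chosen after their values were seen. The genes and lists were chosen with earlier results of these data known, and the promoter motifs with the sequences in view. Alternatives were no block, other scalings and filters, each tumour left out, and DESeq2 1.42.0.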

Additional observations from a re-analysis of the deposited data

Results flagged for a closer look

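Of 54 groups of 4 libraries, 7 held a library whose gap to its nearest neighbour was a large share of the group's range (by Dixon's ratio), where chance flags about 1 in 20 groups. In 4T07 p27K high cells tumour 2 was low for Foxm1 (6.08 CPM) and for Rbbp4 (210 CPM), and it was the library with fewest genes detected. Tfdp2 was high in the 4T07 p27K negative library of tumour 2 (66.6 CPM) and in the D2A1 p27K high library of tumour 4 (30.3 CPM). Lin52 was low in the D2A1 p27K high library of tumour 2 (6.43 CPM) and high in the EMT6 p27K negative library of tumour 1 (8.21 CPM). Lin9 was low in the EMT6 p27K high library of tumour 4 (6.87 CPM).

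The change between the gates differed between the lines for Foxm1 (adjusted p = 0.00491), Mybl2 (adjusted p = 0.00757) and Lin9 (adjusted p = 0.0125), by edgeR's quasi-likelihood F test in the fit of all libraries. The same test passed for 24.5% of all 13578 genes. Line and sequencing run cannot be told apart.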

How the results depend on the processing

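The calls of Mybl2, Foxm1, Lin9, Lin54 and Tfdp1 kept their direction and their side of the threshold under every alternative run in each line and on average. The number of the 9 genes called stayed between 6 and 8 in 4T07, 5 and 6 in D2A1 and 7 and 8 in EMT6. Of all genes tested in the main fits, 23.6%, 14.7% and 25.1% fell in 4T07, D2A1 and EMT6, and 22.1%, 14.9% and 24.1% rose. Counts over all genes under some of the alternatives follow. Without the replicate block, 1607 genes differed between lines, against 3332 with the tumour pairing kept, and 4407, 3563 and 4471 genes were called in 4T07, D2A1 and EMT6, against 5868, 3794 and 6567. In that fit Rbbp4 in 4T07 (adjusted p = 0.0521), Tfdp2 in EMT6 (adjusted p = 0.120) and the difference between lines of Lin9 (adjusted p = 0.0674) were lost, and Tfdp2 in D2A1 (adjusted p = 0.0456) was gained. The block changed no other call among the 9 genes. Leaving out each tumour gave 3698 to 7727 genes called in 4T07 (3698 without tumour 1) and 2444 to 5051 in D2A1 (2444 without tumour 1). With total count scaling the 4T07 median over all genes was -0.14, 33.2% of the calls there were higher, against 48.3% with TMM (40.9% against 54.1% on average), and Lin52 passed in 4T07 (adjusted p = 0.0460). Rbbp4 in D2A1 passed without tumour 3 (adjusted p = 0.0475), and the difference of Lin54 between lines passed without D2A1 tumour 4 (adjusted p = 0.0498). Values that changed sign were not called under any of these settings: with each tumour left out, the change of Lin52 in D2A1 ran from -0.232 to 0.0211, that of Lin37 in EMT6 from -0.0765 to 0.0685, and that of Lin37 on average from -0.00683 to 0.182, and with total count scaling Lin37 on average was at -0.0270. Leaving out a D2A1 tumour left 43 to 44 of the late and 39 to 40 of the early genes called there. The number of other RBBP4 complex genes called ranged from 6 to 16 in 4T07 and 6 to 13 in D2A1 when a tumour was left out. The cause of these shifts was not tested. In D2A1, p27K negative libraries held as few as 9 reads of Lin37 and of Lin52, which limits how finely a level can be read there.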
